A study of Mus musculus with 12 samples.

Results

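The Cdx genes are the mouse relatives of fly caudal, and the family has 3 members, Cdx1, Cdx2 and Cdx4. They were followed across 12 arrays of embryoid bodies, aggregates in which embryonic stem cells differentiate. Members were chosen by name: each is the gene of a probe set annotated to it alone, and each of the 3 has exactly 1 such probe set (10459153 for Cdx1, 10535771 for Cdx2 and 10601298 for Cdx4), among 19938 genes with a probe set of their own. The cells were A2lox embryonic stem cells of the 129P2/OlaHsd background, grown on feeder fibroblasts that were removed before aggregation. In the knockdown line doxycycline (dox, 0.5 µg/ml) induces microRNAs against the Geminin transcript, and in the overexpression line it induces Geminin. The knockdown line was collected on day 4 without dox (3 arrays) or with dox from day 0 (3 arrays). The overexpression line was collected on day 5 without dox or with dox from day 3 (2 arrays each, replicates 1 and 2), and on day 4 without dox or with dox from day 3 (1 array each, replicate 3). The labels do not state whether replicates came from separate cultures, so each p-value covers only the spread among these arrays, part or all of which can be technical.

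Cdx proteins are homeodomain transcription factors that pattern the posterior body. In the gastrulating embryo they are switched on in the primitive streak and later the tailbud by Wnt, Fgf and retinoic acid signals, and they in turn activate Hox genes. Cdx1 is a textbook target of both Wnt and retinoic acid. Cdx2 is also known from the trophectoderm, the outer layer of the blastocyst, and from the intestinal epithelium. Cdx4, an X-linked gene, acts in posterior mesoderm and is known for a role in the making of blood precursors.

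The RefSeq promoter table (GRCm38.p6) held Cdx2 and Cdx4 but no entry for Cdx1. The 250 bases before each start are therefore shown for these 2 members, with no Cdx1 window to compare. Both windows hold the same octamer, ATGCAAAT, a motif bound by POU factors such as the pluripotency factor Pou5f1. Both windows are written 5′ to 3′ on the strand of the gene, and capitals mark the octamer. They lie at chr5:147307250-147307499 on the minus strand (Cdx2) and chrX:103321148-103321397 on the plus strand (Cdx4).
Cdx2: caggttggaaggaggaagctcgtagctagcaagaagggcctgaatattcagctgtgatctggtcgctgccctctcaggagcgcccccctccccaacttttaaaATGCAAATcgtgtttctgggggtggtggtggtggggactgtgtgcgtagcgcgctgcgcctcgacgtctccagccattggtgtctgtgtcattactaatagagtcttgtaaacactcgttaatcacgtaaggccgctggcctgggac
Cdx4: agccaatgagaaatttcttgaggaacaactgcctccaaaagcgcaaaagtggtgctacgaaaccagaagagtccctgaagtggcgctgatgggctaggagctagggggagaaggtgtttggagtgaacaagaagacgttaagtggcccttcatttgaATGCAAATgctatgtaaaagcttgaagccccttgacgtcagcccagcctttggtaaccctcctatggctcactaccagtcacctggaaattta

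The octamer lay 147 to 140 bases before the start of Cdx2 and 93 to 86 bases before that of Cdx4. Searched on both strands, it occurred in 1.6% of 32851 promoter windows of this length. The octamer was searched after the sequences had been read. A TCF/LEF motif, the site of the Wnt transducers (spelled CTTTGAA and its relatives CTTTGAT, then CTTTGTA, and also CTTTGTT), was in 14.8% of all windows and in neither of these. A Cdx motif (TTTATNG) was in 9.81% and in neither. A CCAAT box was in both and in 33.8% of all windows, and a cAMP response element (TGACGTCA) in Cdx4 alone of the pair and in 1.55% of all. The last 2 do not overlap the octamer. A match is a run of letters, not a shown binding site, and these windows hold no distant enhancers.

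The values are log2(intensity + 1) after quantile normalization. Array means of the deposited intensities lay between 677.3 and 696.6. Genes with a mean log2 level under 6.46, the 20th percentile, were not tested, which left 15950 genes with Cdx1 and Cdx2 among them. Cdx4 did not pass, since it was above that level on only 2 of 12 arrays. Its differences are given from the same model fitted to all 19938 genes. The targeted gene followed the labels. Gmnn, which encodes Geminin, was lower with dox in each of the 3 same-numbered pairs of the knockdown line (by 0.40 to 0.67 on the log2 scale) and higher in each pair of the overexpression line (0.68 to 1.08). Its fitted dox effects were -0.50 ± 0.14 (SE) in the knockdown line and 0.82 ± 0.14 in the overexpression line. Neither was called over all tested genes (limma adjusted p = 0.965 and 0.922). A gene that was not called for dox can therefore still have changed. The embryoid body label was read against 2 marker lists. All 10 pluripotent cell markers and all 9 primitive streak markers with a probe set passed the filter, and none was listed at 0 on any array. Neither observation can decide the label, since 15950 of 19938 genes passed. All 8 neural ectoderm and all 12 trophectoderm and trophoblast markers passed too.

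Cdx2 varied most, over 3.13 log2 units or 8.78-fold between its lowest and its highest array. Without dox the knockdown line gave 7.53, 6.85 and 8.16 in replicates 1, 2 and 3, and with dox 8.41, 7.71 and 8.44. The overexpression line gave 9.23 without and 9.28 with dox on day 4. On day 5 it gave 8.81 and 9.52 without dox, and 9.11 and 9.98 with dox, in replicates 1 and 2. Every array of the overexpression line was above every array of the knockdown line, while in each line the ranges with and without dox overlapped. In deposited intensity the extremes were 114.8 (knockdown control replicate 2) and 1043 (day 5 dox replicate 2).

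Cdx4 was near the bottom of the array on 10 of 12 samples. In the knockdown line it stood at 5.37, 6.04 and 6.16 without dox and at 5.58, 6.03 and 6.04 with dox. In the overexpression line it stood at 6.03 and 6.14 in the day 4 pair. On day 5 replicate 1 gave 5.40 without and 5.27 with dox, and replicate 2 gave 7.25 and 7.26. So the high arrays were the replicate 2 pair of day 5, at the 38.1 and 38.0 percentile of all genes on their arrays, against 4.1 to 15.2 on the other 10. Their deposited intensities were 136.1 and 142.8, and the others ran from 39.28 to 75.93.

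The signal of Cdx1 was the steadiest of the family, with a range of 0.66 log2 units or 1.58-fold over all arrays. Whether this signal stood above the background of its probe set was not tested. A flat signal therefore does not show that Cdx1 was steadily expressed. The knockdown line gave 8.13, 7.99 and 8.53 without and 8.02, 8.28 and 8.01 with dox. The overexpression line gave 8.24 and 8.31 on day 4 without and with dox, and on day 5 7.88 and 8.04 without and 8.42 and 8.30 with dox. The lines covered nearly the same range, 7.99 to 8.53 against 7.88 to 8.42. On day 5 both dox arrays were above both controls.

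**Figure D1:**
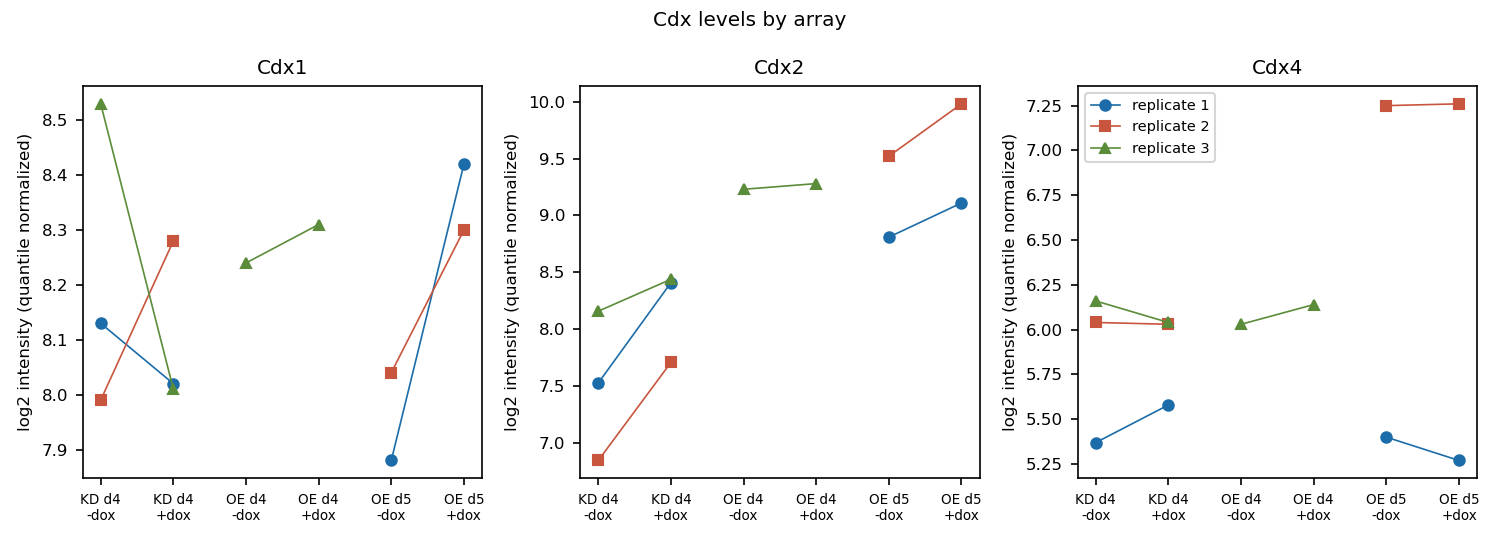
Log2 intensity (vertical axis, a different scale in each panel) of Cdx1, Cdx2 and Cdx4 on each array, by line (KD knockdown, OE overexpression), day and dox. Each point is 1 array, its shape and colour give the replicate number, and lines join arrays of equal number. Cdx2 lies between 6.85 and 8.44 in the knockdown line and between 8.81 and 9.98 in the overexpression line, and Cdx4 is at 7.25 and 7.26 in replicate 2 of day 5 and at most 6.16 elsewhere.

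The comparison of the lines on day 4 asks how far the family differs before any effect of dox, since the lines differ in their transgene. In the fitted no-dox baseline Cdx2 was lower in the knockdown line, at -1.60 ± 0.43 (SE) on the log2 scale, 3.04-fold (95% interval of the log2 difference -2.56 to -0.65). The limma p for Cdx2 alone was 0.0037, and over all genes its adjusted p was 0.187, so Cdx2 was not called. The adjusted p ran from 0.00779 to 0.897 over the settings tried. Among tested genes 0.307% were called in this comparison at an adjusted p under 0.05, and 6.02% were lower at an unadjusted p under 0.05. An exact two-sided permutation of the line labels within dox status gave p = 0.0625, the smallest possible. Without dox the means were 7.51 ± 0.66 (SD, n = 3) in the knockdown line and 9.23 in the single array of the overexpression line. With dox they were 8.19 ± 0.42 (SD, n = 3) and 9.28. All 6 overexpression arrays, day 5 included, lay above all 6 knockdown arrays, a separation shared by 3.15% of tested genes. The overexpression line has only replicate 3 on day 4. Between the arrays numbered 3 alone the difference of Cdx2 was smaller, at -1.06 without dox (2.09-fold) and -0.83 with dox (1.78-fold), since replicate 3 was the highest array of the knockdown line in both groups.

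For Cdx1 the fitted line difference was 0.08 ± 0.18 (SE; interval -0.32 to 0.49; limma adjusted p = 0.895). Its sign turned without knockdown control replicate 3 (-0.07) and without the day 4 dox array of the overexpression line (-0.03). For Cdx4 it was -0.23 ± 0.64 (interval -1.65 to 1.20; limma adjusted p = 0.933 with no filter). Cdx4 turned without day 5 dox replicate 1 (0.07), day 5 control replicate 2 (0.05) or knockdown control replicate 1 (0.02). Neither gene was distinguishable between the lines, and the interval of Cdx4 includes the difference measured for Cdx2.

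The posterior pathway around Cdx2 was read in 5 gene lists, assembled with earlier results of these data known. Of 15 posterior signals, 12 were lower in the knockdown line and 3 higher, where 53.1% of all tested genes were higher. The list median was -0.90, against 0.02 over all tested genes. At an unadjusted p under 0.05, 7 were lower and 1 higher, where 5.6% of tested genes were higher. Limma called 3 of them, all lower: Wnt5a, a ligand of convergent extension, at -2.81 ± 0.43 on the log2 scale (adjusted p = 0.0304), the R-spondin gene Rspo3, which boosts Wnt signalling, at -2.31 ± 0.32 (adjusted p = 0.0203), and the retinoic acid hydroxylase Cyp26a1 at -2.35 ± 0.38 (adjusted p = 0.0433). Wnt3, the ligand that starts the primitive streak, was not called at -1.08 ± 0.30 (SE; adjusted p = 0.194), nor was Fgf8 at -1.37 ± 0.52 (adjusted p = 0.348). Wnt3a, the tailbud ligand, was at 0.18 ± 0.19, with 7.84 to 8.66 in the knockdown and 7.89 to 8.33 in the overexpression line. Fgf4, at 1.14 ± 0.43, was the signal with an unadjusted p under 0.05 in the other direction.

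Of 15 canonical Wnt response genes and transducers with a probe set, 11 were lower in the knockdown line and 4 higher (median -0.60). Tcf7, also on this list, had no probe set annotated to it alone under that symbol. Limma called Dkk1, a secreted Wnt antagonist that is itself a Wnt target, at -1.56 ± 0.24 (adjusted p = 0.0304). The feedback gene Axin2 was at -1.36 ± 0.41, Sp5 at -1.39 ± 0.48 and the transducer Lef1 at -1.14 ± 0.26, none of them called (limma adjusted p = 0.231, 0.294 and 0.115). Lef1 lay between 9.42 and 10.15 in the knockdown line and between 10.53 and 11.20 in the overexpression line, a separation like that of Cdx2. Axin2 overlapped only with day 5 included, since the highest knockdown array (9.34) was above day 5 control replicate 1 (9.21). On day 4 the overexpression line gave 9.93 without and 9.87 with dox for Axin2, above all knockdown arrays.

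Of 14 streak and tailbud transcription factors listed, T (Brachyury) had no probe set annotated to it alone under that symbol. It is missing from the primitive streak markers for the same reason. Of the other 13, 10 were lower and 3 higher (median -1.05), and limma called 4, all lower. These were Msgn1 (-1.37 ± 0.16; adjusted p = 0.0149) and Tbx6 (-1.05 ± 0.15; adjusted p = 0.0249), both presomitic mesoderm factors, Mesp1 of nascent mesoderm (-1.62 ± 0.20; adjusted p = 0.0171) and Evx1 of the posterior streak (-2.64 ± 0.41; adjusted p = 0.032). Mixl1 was at -3.16 ± 0.95 and Eomes at -2.27 ± 0.68, which were not called (limma adjusted p = 0.228 and 0.231). In the other direction the segmentation gene Hes7 was at 0.44 ± 0.16 and Evx2 at 0.34 ± 0.13. Msgn1 separated the lines most cleanly of these, at 7.12 to 7.38 against 8.57 to 9.04.

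The Hox list, whose members are the best known targets of Cdx proteins, had a different makeup. Of 39 genes, 37 had a probe set and 32 were tested, 20 of them higher and 12 lower in the knockdown line (median 0.15), with 0 called by limma and 3 at an unadjusted p under 0.05. These were Hoxb1, an anterior and early Hox gene, at -0.88 ± 0.19 (limma adjusted p = 0.107), Hoxc11 at -0.44 ± 0.16 and Hoxd11 at 1.03 ± 0.21. Among all tested genes 5.6% were higher and 6.02% lower at that threshold. Over all 12 arrays Hoxb1 was the only tested Hox gene whose lines did not overlap. It had a median of 7.72 in the knockdown line, and ran from 8.54 to 9.03 in the overexpression line. A separation in this direction was shared by 3.15% of all tested genes, so 1 of 32 Hox genes is near that share. The ParaHox relatives Gsx1, Gsx2 and Pdx1 were at 0.06 ± 0.17, 0.03 ± 0.20 and -0.03 ± 0.13. Without either day 4 array of the overexpression line limma called 0 genes in this comparison (808 and 1042 at an unadjusted p under 0.05), so the calls above rest on that pair. It called 4 and 6 without knockdown control replicate 1 or 2, 25 without knockdown dox replicate 3 or day 5 control replicate 1, 28 without day 5 dox replicate 2 and 80 without knockdown dox replicate 2.

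**Figure D2:**
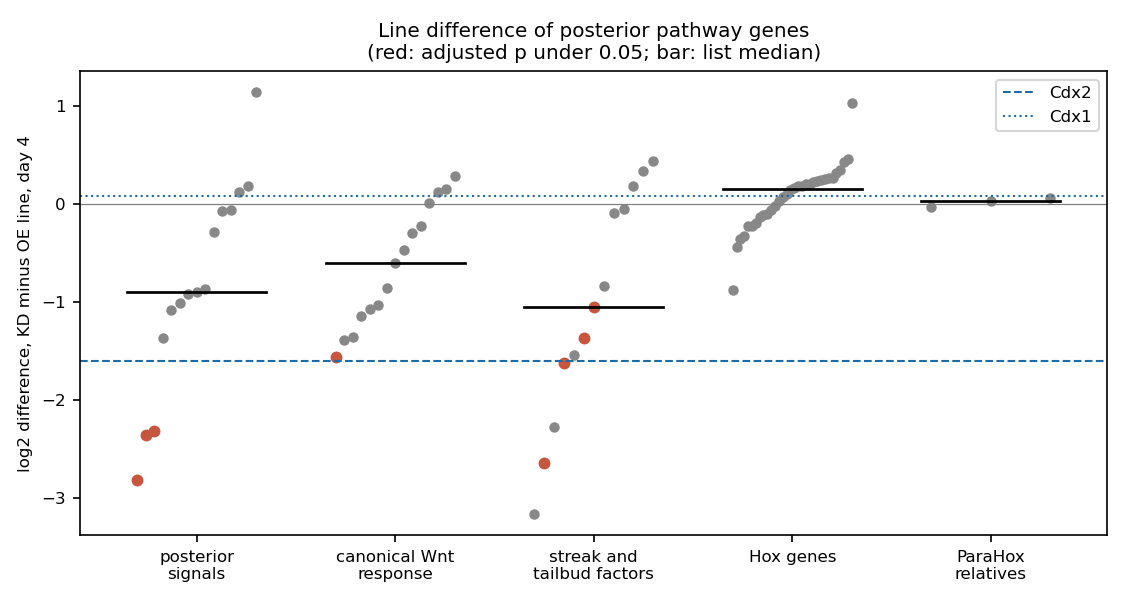
Fitted log2 difference between the knockdown and the overexpression line on day 4 (vertical axis) for each tested member of 5 posterior gene lists, 1 point a gene, red where limma's adjusted p was under 0.05, with the list median as a black bar. Dashed and dotted lines mark Cdx2 (-1.60) and Cdx1 (0.08). The medians of the first 3 lists lie at -0.90, -0.60 and -1.05, and those of the Hox and ParaHox lists at 0.15 and 0.03.

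Some marker lists of other cell types differed between the lines while others overlapped, and their part in the Cdx2 difference was not tested. Fewer cells of a type and less RNA per cell cannot be told apart in these bulk samples. The ranges given here for the overexpression line include day 5. The summed normalized intensity of the 9 primitive streak markers was 2506 to 8665 in the knockdown and 7157 to 13481 in the overexpression line. These streak ranges overlap through day 5 alone, since the day 4 overexpression arrays were at 13481 without and 11992 with dox. For 12 trophectoderm and trophoblast markers, of which 6 were lower and 6 higher in the knockdown line, the sum was 4194 to 9547 against 10638 to 15799. The keratin genes Krt8 and Krt18 were the brightest of them and weigh most in that sum. Their median log2 levels were 10.94 and 10.19 in the knockdown line, and 12.28 and 11.91 in the overexpression line. The trophoblast factor Elf5 was at 0.31 ± 0.18 and Tfap2c at 0.09 ± 0.21, and the members with an unadjusted p under 0.05 were Gata3 (-1.39 ± 0.29) and Eomes, which the streak also expresses. For 10 blood and endothelium markers the sum was 2379 to 2898 against 3149 to 5734. Of these Kdr, the receptor of haemangioblast mesoderm, was called lower at -2.43 ± 0.34 (limma adjusted p = 0.0203). For the 10 pluripotent markers the sum was 15584 to 20012 against 11240 to 19197, and the day 4 overexpression arrays (15158 and 15541) lay below all 6 knockdown arrays. In the fit 8 of 10 were higher in the knockdown line (median 0.57), with Zfp42 at 1.26 ± 0.28 and 0 called. Intestinal markers, of which 5 of 9 passed the filter, overlapped at 962 to 1331 against 985 to 1153. Feeder fibroblast markers, of which 6 of 8 passed, ran from 1320 to 1719 against 1549 to 2102. Neural ectoderm markers (1797 to 2596 against 1729 to 2415) and visceral endoderm markers (2592 to 9638 against 2952 to 5621) overlapped too. No marker was listed at 0, which by itself does not show that a gene was expressed.

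Setting dox arrays of the knockdown line against its controls asks whether the family follows a lower Geminin level. Cdx2 was higher with dox by 0.68 ± 0.35 (SE), 1.60-fold, with a 95% interval of -0.11 to 1.46. It was not called by limma (adjusted p = 0.965, and from 0.231 to 0.999 over the settings tried; unadjusted p = 0.0831). With a block for replicate number within each line, the same difference had an SE of 0.14 (limma unadjusted p = 0.00152, adjusted p = 0.231). It was not called there either. Among tested genes 0.00627% were called at an adjusted p under 0.05, and 2.17% were higher at an unadjusted p under 0.05. An exact two-sided permutation test gave p = 0.2, where the smallest possible is 0.1. Within arrays of equal number the differences were 0.89, 0.86 and 0.28, so each dox array was above the control of its number, as for 19.5% of tested genes, but dox replicate 2 (7.71) lay below control replicate 3 (8.16). The value was 0.34 without control replicate 2, the lowest array, and 1.00 without control replicate 3.

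Cdx1 did not move one way in this line. Its differences within numbers were -0.11, 0.30 and -0.52, and the fitted value was -0.11 ± 0.15 (interval -0.44 to 0.22; limma adjusted p = 0.965; exact two-sided permutation p = 0.7). It turned to 0.05 without control replicate 3. Cdx4 differed by 0.21, -0.01 and -0.13 within numbers, with a fitted value of 0.02 ± 0.52 (interval -1.14 to 1.19; limma adjusted p = 0.997 with no filter), which ran from -0.22 to 0.18 without single arrays. These intervals come from the fit without a block for replicate number. They leave room for a change of about the size measured for Cdx2 in Cdx4, but not in the signal of Cdx1. With the block the SE was 0.09 for Cdx4 and 0.16 for Cdx1.

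Around Cdx2, 10 of 15 posterior signals were higher with dox in the knockdown line and 5 lower, where 52.7% of all tested genes were higher (median 0.26, against 0.01 over all), with 1 at an unadjusted p under 0.05 and 0 called by limma. That member was Rspo3, at 0.64 ± 0.27. Of the Wnt response list, 11 of 15 were higher (median 0.20), with Axin2 at 0.53 ± 0.33, Fzd10, a Wnt receptor gene, at 0.51 ± 0.29, Sp5 at 0.47 ± 0.39 and Dkk1 at 0.40 ± 0.19, and 0 had an unadjusted p under 0.05. Of the streak and tailbud factors, 9 of 13 were higher (median 0.15), and Evx1, at 0.82 ± 0.33, had an unadjusted p under 0.05 (0.0323; limma adjusted p = 0.965). The Hox list leaned the other way, with 21 of 32 lower (median -0.09) and 0 at an unadjusted p under 0.05. Its largest differences were Hoxa11 at -0.38 ± 0.22, Hoxc4 at -0.32 ± 0.21, Hoxd11 at -0.32 ± 0.17 and Hoxb2 at -0.29 ± 0.21. All 3 ParaHox relatives were lower, from -0.20 ± 0.16 (Gsx2) to -0.08 ± 0.14 (Gsx1). None of these list members was called over all genes.

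Cdx2 and the streak markers had their lowest value of all 12 arrays on the same one, knockdown control replicate 2. The mean log2 level of the streak list was 7.46 there and 8.38 and 8.57 on the other controls. It was 9.36, 7.95 and 8.94 with dox in replicates 1, 2 and 3. The pluripotent list ran the other way, at 10.39 on control replicate 2, 10.09 and 10.03 on the other controls and 9.51, 10.12 and 9.73 with dox. Its member Pou5f1, a POU factor, covered 12.54 to 12.77 over the 6 arrays of this line. The visceral endoderm list had its highest mean of all arrays on control replicate 2 too, at 8.97, against 7.93 and 8.16 on the other controls and 7.73, 8.73 and 7.82 with dox. All 9 of its tested members were lower with dox in the fit (median -0.31), with 0 at an unadjusted p under 0.05. All 9 streak markers were higher with dox in the fit (median 0.68) and 9 of 10 pluripotent markers lower (median -0.42), with 1 of each list at an unadjusted p under 0.05 and 0 called by limma. The part of these levels in the Cdx2 difference was not tested.

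**Figure D3:**
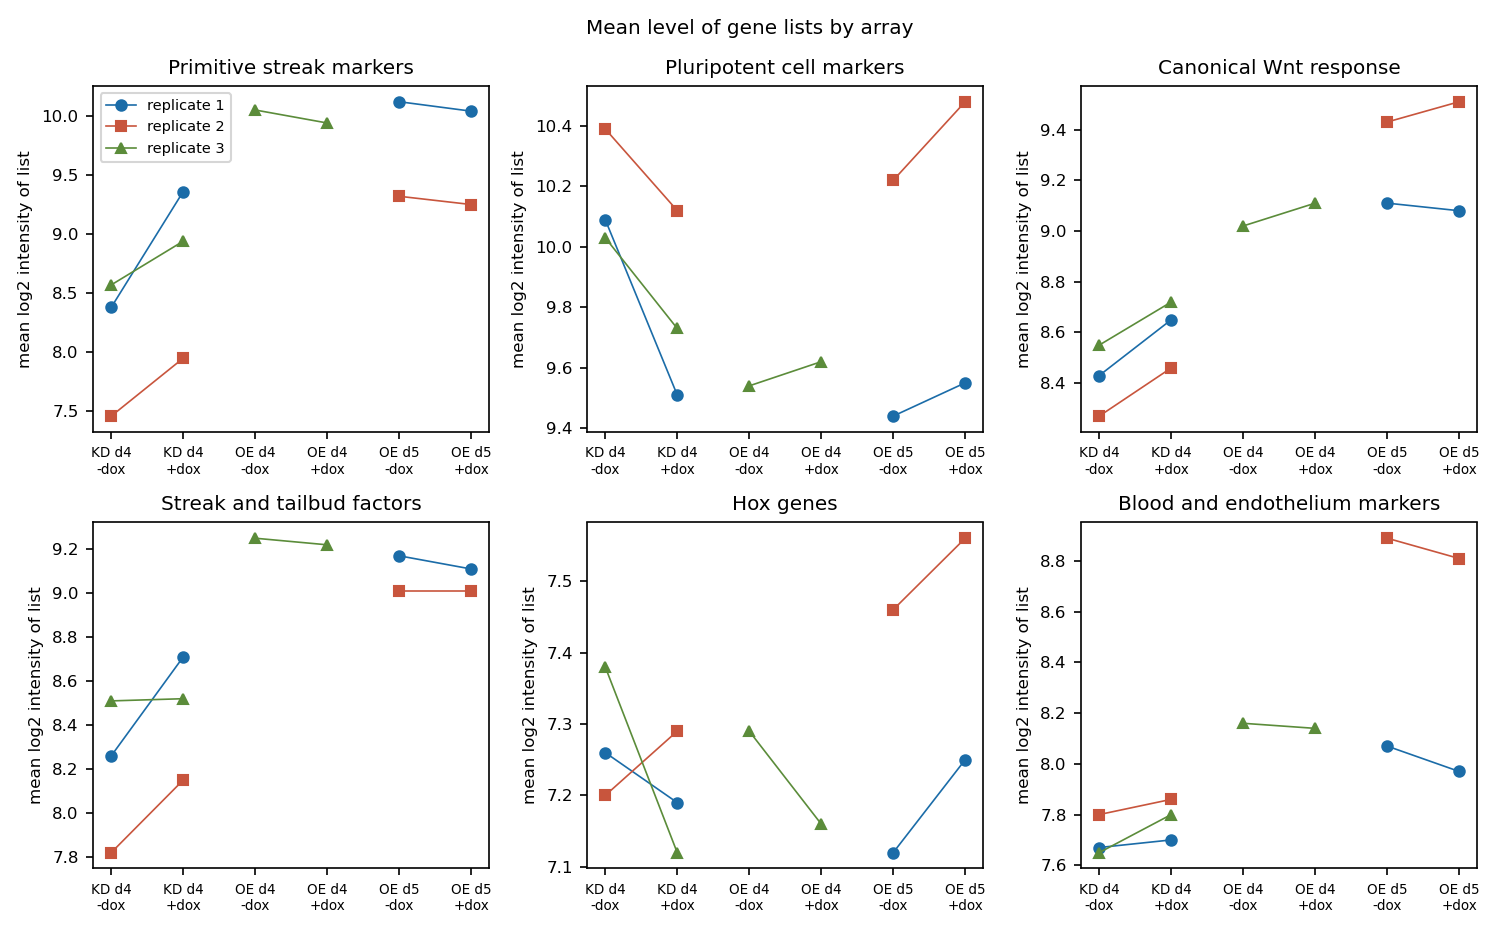
Mean log2 intensity of 6 gene lists on each array (vertical axis, a different scale in each panel), laid out by line, day and dox, with 1 point an array and lines joining equal replicate numbers. The primitive streak mean is lowest at 7.46, on knockdown control replicate 2, and the Hox and blood means are highest in replicate 2 of day 5, at 7.46 and 7.56 and at 8.89 and 8.81.

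The comparison in the overexpression line asks whether the family follows a raised Geminin level. Cdx2 was higher with dox by 0.27 ± 0.35 (SE), 1.21-fold, with an interval of -0.51 to 1.05 (limma adjusted p = 1 to 2 decimals; exact two-sided permutation p = 0.5, where the smallest possible is 0.167). Among tested genes 0.00627% were called, and 0.345% were higher at an unadjusted p under 0.05. Within numbers it differed by 0.30 and 0.46 on day 5 and by 0.05 on day 4. Without day 5 dox replicate 2 the fitted value was -0.01, since that leaves the lower of both day 5 dox arrays against controls of both replicates.

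Cdx1 had the smallest unadjusted p of the family here. It was higher by 0.29 ± 0.15, 1.22-fold (interval -0.04 to 0.61; unadjusted p = 0.0799; limma adjusted p = 1 to 2 decimals; permuting exactly and two-sided, p = 0.167, which no arrangement can undercut). The differences within numbers were 0.54 and 0.26 on day 5 and 0.07 on day 4. All 3 dox arrays were above the control of their number, as for 16.6% of tested genes. Cdx4 differed by -0.13, 0.01 and 0.11, with a fitted value of 0.00 ± 0.52 (interval -1.16 to 1.16). That value ran from -0.55 without day 5 dox replicate 2 to 0.58 without day 5 dox replicate 1.

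The posterior lists were close to the background in this line. The medians were 0.02 for posterior signals (8 of 15 higher), 0.04 for the Wnt response (12 of 15), 0.00 for streak and tailbud factors (7 of 13) and 0.04 for Hox genes (22 of 32), against 0.01 over all tested genes, of which 56.7% were higher. Limma called 0 members, and 0 had an unadjusted p under 0.05, where 0.934% of tested genes did. Larger differences among them were those of Cyp26a1 (-0.31 ± 0.31), Eomes (-0.31 ± 0.56), Hoxc11 (-0.29 ± 0.13), Hoxa5 (0.25 ± 0.53), Fzd10 (0.21 ± 0.29) and Nkx1-2, a gene of the caudal epiblast (0.21 ± 0.30).

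Whether the dox effects differ was tested as knockdown minus overexpression, between lines whose dox began on different days. Cdx1 gave -0.40 ± 0.21 (interval -0.86 to 0.07), Cdx2 0.41 ± 0.50 (-0.70 to 1.51) and Cdx4 0.03 ± 0.74 (-1.62 to 1.67). Without single arrays Cdx2 ran from 0.07 (knockdown control replicate 2 left out) to 0.73 (knockdown control replicate 3 left out), and Cdx4 from -0.56 to 0.58. None was called (limma adjusted p = 1 to 2 decimals for Cdx1, for Cdx2 and, with no filter, for Cdx4), and 0 of 15950 genes were (0%), with 340 (2.13%) at an unadjusted p under 0.05. Cdx2 was higher with dox in all 6 same-numbered pairs of the 2 lines, as were 2.88% of tested genes. The largest differences among these posterior lists were Eomes (1.19 ± 0.79), Mixl1 (0.91 ± 1.09), Cyp26a1 (0.87 ± 0.44) and Evx1 (0.78 ± 0.47), none of them called.

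**Figure D4:**
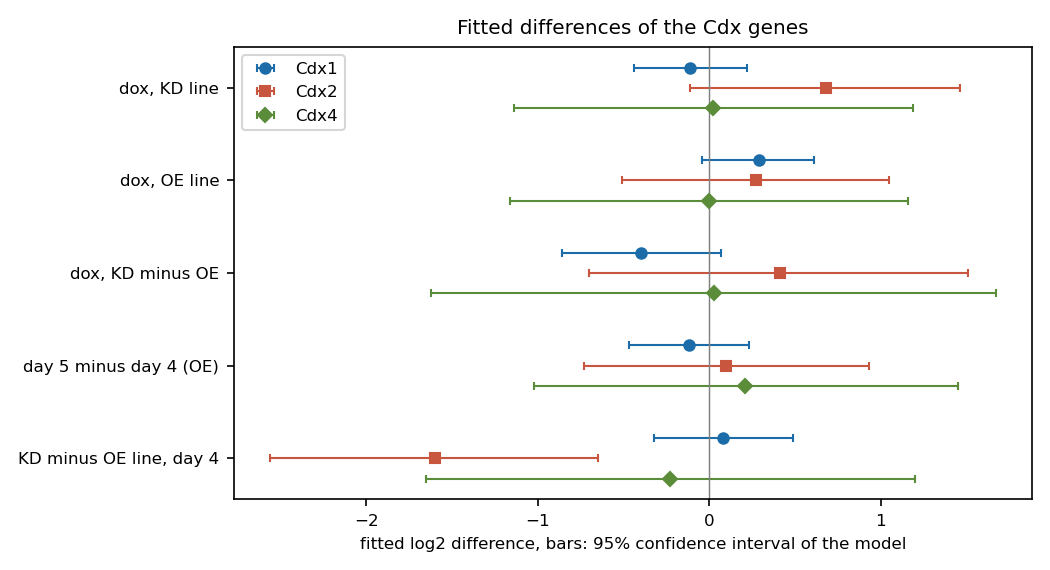
Fitted log2 differences of Cdx1, Cdx2 and Cdx4 (horizontal axis) in 5 comparisons, with the 95% confidence interval of the model as bars; Cdx4 comes from the fit with no filter on dim genes. The fit has no block for replicate number. In it the interval of Cdx2 between the lines on day 4, -2.56 to -0.65, is the one that does not include 0. With the block, not drawn here, Cdx2 for dox in the knockdown line had an SE of 0.14 instead of 0.35.

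Day 5 against day 4 in the overexpression line compares replicates 1 and 2 with replicate 3, so day and replicate cannot be told apart. Cdx2 differed by 0.10 ± 0.37 (interval -0.73 to 0.93; limma adjusted p = 0.94), Cdx1 by -0.12 ± 0.16 (interval -0.47 to 0.23; limma adjusted p = 0.806) and Cdx4 by 0.21 ± 0.56 (interval -1.02 to 1.45; limma adjusted p = 0.932 with no filter). Limma called 0.558% of tested genes. On day 5 Cdx2 and Cdx4 of replicate 1 lay below, and of replicate 2 above, the day 4 arrays of equal dox status. The sign for Cdx2 turned without either array of day 5 replicate 2 (-0.03 and -0.11) and without the day 4 dox array (-0.06), and that for Cdx1 turned without the day 4 control (0.05). Cdx4 turned without either array of day 5 replicate 2 (-0.19 and -0.20) and was 0.65 without day 5 dox replicate 1.

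The posterior lists were mixed between the days. Of the posterior signals 7 were higher and 8 lower on day 5 (median -0.10), of the Wnt response genes 9 and 6 (median 0.16), and of the streak and tailbud factors 6 and 7 (median -0.09). Limma called the retinoic acid synthesis gene Aldh1a2 (1.52 ± 0.22; adjusted p = 0.0233) and Dkk1 (1.28 ± 0.20; adjusted p = 0.0346), both higher. Rspo3 (1.24 ± 0.28), Bmp4 (1.19 ± 0.39), Fgf3 (0.77 ± 0.23), Lgr5 (0.89 ± 0.26) and Tbx6 (0.42 ± 0.13) had an unadjusted p under 0.05 but were not called. The same held for Apcdd1 (0.58 ± 0.24), Nkd1 (0.46 ± 0.18) and Rnf43 (0.33 ± 0.13) of the Wnt response list. At that threshold 7.52% of tested genes were higher and 6.68% lower, and all the genes just named were higher. Wnt8a (-1.04 ± 0.52), Eomes (-0.80 ± 0.59), Sp8 (-0.62 ± 0.36) and Evx1 (-0.52 ± 0.35) had the largest differences in the other direction, none at an unadjusted p under 0.05. Of the primitive streak markers 8 of 9 were lower (median -0.32). Of 32 Hox genes 23 were higher, where 49.8% of tested genes were (median 0.09, against 0.00 over all), with Hoxd11 (0.59 ± 0.18), Hoxc8 (0.59 ± 0.20) and Hoxa2 (0.46 ± 0.16) at an unadjusted p under 0.05 and 0 called. Pdx1 was at -0.29 ± 0.11. Of 10 pluripotent markers 6 were higher (median 0.36), with Tbx3 at 1.07 ± 0.50 and Esrrb at 1.04 ± 0.68, while Pou5f1 was the 1 member called, lower at -0.59 ± 0.10 (limma adjusted p = 0.0383). The calls rest on few arrays, since limma called 0 genes without day 5 control replicate 1 or without either day 4 array (2136, 1014 and 944 at an unadjusted p under 0.05). It called 3 and 13 without the replicate 2 control or dox array of day 5. Without arrays of the knockdown line, which share the estimate of spread, it called 35 (control replicate 1), 148 (control replicate 2), 37 (dox replicate 1) and 15 (dox replicate 3).

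The day 5 replicates set Cdx4 and Cdx2 apart from Cdx1. Replicate 2 exceeded replicate 1 by 1.85 without and 1.99 with dox for Cdx4 (3.61-fold and 3.97-fold), and by 0.71 and 0.87 for Cdx2 (1.64-fold and 1.83-fold). For Cdx1 the differences were 0.17 and -0.11. Both differences were at least the smaller one of Cdx4 (1.85) in 15 of 19938 genes (0.0752%), Cdx4 included, and at least the smaller one of Cdx2 (0.71) in 1.47%. Besides Cdx4 the 15 were Slc6a9, Serpinf1, Dlk1, Slc7a11, Slc7a1, Hapln1, Zim1, Nr0b1, Lncenc1, Cpt1a, Trib3, Zfp980, Chac1 and Mthfd2. Of these only Nr0b1, a pluripotent marker, is on a list read here. These are descriptions of 2 replicates and carry no test. Cdx2 and Cdx4 both had their highest values of all arrays in this pair, as had 8.83% of all genes.

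The other posterior genes were read against that share. Of 37 Hox genes with a probe set, 11 were highest there, among them Hoxa5 (8.03 and 8.38, against at most 7.09 elsewhere), Hoxd9 (8.61 and 8.96, at most 8.03), Hoxd8 (7.84 and 8.04, at most 6.86) and Hoxb1 (8.76 and 9.03, at most 8.62). Of 15 Wnt response genes 9 were, with Apcdd1 at 9.44 and 9.58 (at most 8.77) and Notum, a secreted Wnt antagonist, at 8.39 and 8.64 (at most 7.72). Of 15 posterior signals 5 were, with Bmp4 at 10.92 and 11.07 (at most 9.81). Of 13 streak and tailbud factors 1 was, Msgn1, a share near that of all genes. Of the marker lists, 6 of 10 blood and endothelium genes were highest there, 4 of 12 trophectoderm and trophoblast genes, 2 of 8 feeder fibroblast genes and 2 of 10 pluripotent genes. So were 1 of 10 visceral endoderm genes, 1 of 8 neural ectoderm genes, 0 of 9 intestinal genes and 0 of 9 primitive streak genes. The blood list had a mean log2 level of 8.89 and 8.81, against 8.07 and 7.97 in replicate 1. The streak list was at 9.32 and 9.25, against 10.12 and 10.04. The pluripotent list was at 10.22 and 10.48, against 9.44 and 9.55. The part of these levels in the Cdx2 and Cdx4 values was not tested.

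The tested genes most like each member were ranked by Pearson r over the 12 arrays, which share lines, days and replicates, so r is a description. For Cdx2 they were Map2k4, a stress kinase kinase (0.98), Thap12 (0.98), Fzd10 (0.97), Tns2 (0.97) and Ptk7, a planar polarity receptor (0.97). Fzd10, the one of them on a posterior list, ran from 8.02 to 9.42 in the knockdown line and from 9.21 to 10.11 in the overexpression line. For Cdx4 they were Msl2 (0.98), Foxk1 (0.97), Yy1 (0.96), Kat6a (0.96) and Maml1, a Notch coactivator (0.95), and all 5 were highest in replicate 2 of day 5, as for Foxk1 at 9.41 and 9.41 against at most 9.10. For Cdx1 they were Col3a1 (0.92), Whamm (0.89), Th (0.88), Azgp1 (0.87) and Ankrd9 (0.87). Col3a1, a collagen on the feeder fibroblast list, ran from 7.77 to 8.33 over the knockdown arrays, about as narrow as Cdx1 itself. Among the members r was 0.48 for Cdx2 and Cdx4, 0.21 for Cdx1 and Cdx2 and 0.11 for Cdx1 and Cdx4.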

How the data were processed

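Total RNA (1 µg) was labelled with biotin as sense-strand target, per the labels' protocols. The authors deposited linear intensities, 1 per probe set and array (35512 probe sets, 12 arrays); the sources used here do not give how they were summarised or normalized. Each array is 1 sample, and their number limits the precision. Values were transformed as log2(intensity + 1) and quantile normalized. The annotation named 1 gene for 21789 probe sets, 19938 genes in all, and the brightest probe set stood for a gene. Genes below the 20th percentile were not tested. limma 3.58.1 in R 4.3.3 was fitted to all 12 arrays, giving every line and day its own baseline, each line 1 dox effect, and no replicate block (7 residual and 3.5 prior degrees of freedom). A gene was called where its adjusted p (Benjamini-Hochberg, over all tested genes) was under 0.05. Exact permutation tests were two-sided. Fold changes on this scale understate dim genes. The steps were tested on simulated data. Alternatives were block, normalization, pseudocount, filter, probe-set rule, array subsets, array weights, variance trend and leaving out each array.

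The members and gene lists were chosen with earlier results of these data known. Genes named were taken from the members, Gmnn, list members with an unadjusted p under 0.05 or else up to 4 with the largest difference, and the 5 genes most like each member. Genes that differed between the day 5 replicates at least as much as Cdx4 were named too. Other list genes are named as examples, chosen after their values were seen.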

Additional observations from a re-analysis of the deposited data

How the results depend on the processing

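No alternative called Cdx1 or Cdx2 for dox, for day or for the difference of the dox effects. Cdx4 had an adjusted p only with no filter, and was not called. Cdx2 was called between the lines on day 4 with array weights (-1.65, limma adjusted p = 0.00779). Cdx1 turned there with array weights (-0.02) and with day 4 alone for the overexpression line (-0.03). Numbers of genes called were as follows. For the lines on day 4 they were 30 with no further normalization, 29 with no filter, 0 with day 4 alone (1047 at an unadjusted p under 0.05 in limma) and 1170 with array weights, against 49. For day they were 33 with median centring, 27 with no filter, 19 with that line alone, 2567 with array weights and 183 with a variance trend, against 89. For dox in the overexpression line they were 0 with that line alone, with day 5 alone or with day 4 alone (188, 84 and 150 at an unadjusted p under 0.05 in limma) and 201 with array weights, against 1. For dox in the knockdown line it was 0 with that line alone (433), against 1. Without single arrays these counts ran from 0 to 80 for the lines, 0 to 148 for day and 0 to 1 for dox in the overexpression line. Cdx2 ran from -0.01 to 0.49 for dox in the overexpression line and from -0.11 to 0.28 for day. Cdx1 ran from -0.23 to 0.05 for dox in the knockdown line, from -0.28 to 0.05 for day and from -0.07 to 0.30 between the lines. The cause was not tested.

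Arrays of equal number correlated after removing group means at 0.60, 0.44 and 0.05 in the knockdown line and 0.79 on day 5. Each control of the knockdown line correlated best with its own number, though for replicate 3 the values were close (0.05 against 0.02). On day 5, with 2 arrays a group, removing group means fixes the correlation with the other number at the opposite value (-0.79). The day 5 replicates are therefore the same comparison shown from both sides. Removing the mean of 3 arrays can also lower the correlations with other numbers in the knockdown line. In the knockdown line the best correlations with another number were -0.09, 0.02 and 0.02. The main fit did not take the numbers as pairs, so its standard errors include the spread between numbers. With a replicate block within each line Cdx2 was at 0.68 ± 0.14 in the knockdown line (limma unadjusted p = 0.00152, adjusted p = 0.231), against an unadjusted p of 0.0831 without it, and Cdx1 at 0.29 ± 0.16 in the overexpression line (adjusted p = 1 to 2 decimals), and 1, 1 and 0 genes were called for dox in either line and for their difference. The number of genes at an unadjusted p under 0.05 went from 599 to 1941 in the knockdown line and from 149 to 572 in the overexpression line.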
